A study of Homo sapiens with 16 samples.

Results

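The genes of ER targeting and early secretory traffic followed here were *SRP9*, *SSR2*, *SEC22B*, *COPA*, *ARF1*, *RAB1A*, *PREB*, *TMED5*, *TRAPPC3* and *LMAN2L*. They were chosen by function and named through the gene symbols that the study lists, with the transcript of most mRNA-Seq counts taken for each gene. Of the 10 genes, 9 were listed and 8 had a transcript counted in both assays, among 10970 transcripts tested. *TRAPPC3* had a transcript in Ribo-Seq alone and was tested there among 12242 transcripts. *SEC22B*, a SNARE of ER-to-Golgi vesicles, was not among the symbols that could be read and was not analysed here.

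Ribosome-protected fragments (RPFs, or footprints) were sequenced by Ribo-Seq and total mRNA by mRNA-Seq in HEK293T cells, a transformed human embryonic kidney line. The cells were left untreated (UT), or received for 1 hr either 1 µg/ml tunicamycin (Tm), Tm with 200 nM ISRIB, or 200 nM ISRIB. Tm blocks N-linked glycosylation and so causes ER stress, and ISRIB is a small molecule that makes cells insensitive to phosphorylation of eIF2α. Each of the 4 treatments has 2 replicates (a and b), which gives 16 libraries, and the comparisons ask which footprints and mRNAs differ after Tm and whether ISRIB alters that difference. All libraries come from 1 established line, and all cells received cycloheximide before lysis.

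Secretory and membrane proteins are recognised by the signal recognition particle as they emerge from the ribosome, are brought to the ER membrane and enter it through the translocon. Folded cargo then leaves in COPII-coated vesicles, and COPI-coated vesicles return escaped ER proteins and receptors from the Golgi. Small GTPases, tethers, SNAREs and cargo receptors give each step its direction, and many genes of this route are known targets of the unfolded protein response, the transcriptional programme that ER stress sets off.

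Levels are given as CPM (a count divided by its library's TMM-scaled total) within an assay, so every change is relative to the other transcripts of that assay, and total translation was not measured. Translational efficiency (TE) is the footprint CPM over the mRNA CPM of a lysate. Libraries of the same treatment and letter were taken as the same lysate, which the labels do not state. The tested change in TE does not use these pairs: it is the footprint change minus the mRNA change between treatments. A change is called where edgeR's quasi-likelihood test gave a p under 0.1 after Benjamini-Hochberg adjustment over all transcripts tested, and a p above it does not show that levels were the same. An exact test of 2 against 2 libraries alone could not go below a p of 0.33. Libraries held 3001612 to 11469150 counts for Ribo-Seq and 8466193 to 24499266 for mRNA-Seq, and the replicates of every group differed by more than counting error, from 1.64 to 12.22 times it (chi-square per degree of freedom). The highest ratio, 12.22, was that of the ISRIB mRNA-Seq pair. As a check of the treatment, footprints of *ATF4*, whose translation rises when eIF2α is phosphorylated, were at 81.7 and 61.6 CPM in UT, 455 and 464 in Tm, 53.7 and 66.3 in Tm + ISRIB, and 45.3 and 43.4 in ISRIB.

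Short stretches of DNA from 3 promoters are shown because the mRNAs of *ARF1* and *SSR2* were the ones that rose, while *COPA* shares 8 bases with *ARF1* and its mRNA did not pass the test. They are from RefSeq promoters (GRCh38.p14, 250 bases before to 50 after a start), in which 8 of the 9 listed genes have an entry and *RAB1A* has none. Capitals mark TGACGTGG in *ARF1* and *COPA*, a core to which factors of the unfolded protein response are known to bind, and in *SSR2* the first 5 bases of the transcript, a C followed by pyrimidines.
ARF1: cccggaggcgcTGACGTGGccgccgtcaga
COPA: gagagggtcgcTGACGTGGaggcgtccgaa
SSR2: gtgcttatttccggtCTTTCggatgctgac

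The *ARF1* stretch is at chr1:228082681-228082710 on the plus strand, and its 8 bases begin 16 bases before the first of 3 starts listed for the gene. The *COPA* stretch is at chr1:160343227-160343256 on the minus strand, with the 8 bases beginning 5 bases after the start, and the *SSR2* stretch is at chr1:156020937-156020966 on the minus strand. TGACGTGG, searched on both strands after these promoters had been read, occurs in 256 of 35116 promoters (0.729%), and among the listed genes only in those of *ARF1* and *COPA*. The ER stress element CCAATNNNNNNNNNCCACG, searched on both strands, occurs in 0.0769% of promoters and in none of these. A C followed by 4 pyrimidines at the start, the first bases of terminal oligopyrimidine mRNAs, was found in 4.07% of promoters and among these genes only in *SSR2*. Such matches describe the letters and not a bound site, and the start used in these cells was not measured.

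In untreated cells the footprints of these genes spanned a wide range. Per kilobase of counted coding sequence, footprint density in UT was 1213 ± 39 CPM for *SRP9*, 869 ± 12.4 for *ARF1*, 275 ± 23.3 for *SSR2*, 211 ± 7.16 for *RAB1A*, 142 ± 19.1 for *TRAPPC3*, 124 ± 3.77 for *COPA*, 81.9 ± 4.45 for *TMED5*, 37.8 ± 2.14 for *PREB* and 18.2 ± 0.61 for *LMAN2L* (mean ± SD, n = 2). The replicates of neighbours in this order did not overlap, the closest being *TRAPPC3* at 129 and 156 and *COPA* at 121 and 126. *TRAPPC3* was scaled over the 12242 transcripts of Ribo-Seq alone and the others over 10970, so its level is not on quite the same scale. *SRP9* was at the 98.5th percentile of all tested transcripts, *ARF1* at the 97.7th and *LMAN2L* at the 46.6th.

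mRNA density followed another order below the first 3 genes. It was 873 ± 58.3 CPM per kilobase for *SRP9*, 369 ± 11.7 for *ARF1*, 200 ± 4.18 for *SSR2*, 124 ± 11.4 for *TMED5*, 110 ± 4.69 for *COPA*, 93.7 ± 2.09 for *RAB1A*, 67.8 ± 2.02 for *PREB* and 15.8 ± 1.77 for *LMAN2L* (mean ± SD, n = 2). *RAB1A* thus had less mRNA than *TMED5* and more footprints. *TMED5* and *COPA* differed by less than the sum of their SDs.

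Resting efficiency separated the genes accordingly. In UT the log2 efficiency of *ARF1* was 1.19 and 1.28 (85.6th percentile) and that of *RAB1A* 1.22 and 1.11 (84.2nd percentile), which overlapped. *PREB* was lowest at -0.86 and -0.81 (21st percentile), and *TMED5* was at -0.44 and -0.74 (27.8th percentile), whereas the median over all tested transcripts was 0.03. The remaining 4 genes lay between the 55.1st and the 65.8th percentile. In the GENCODE v29 transcripts (GRCh38) whose coding sequence has the counted length, *PREB* and *TMED5* each have 3 ATGs in a 5′ leader of 254 and 486 nucleotides, *SSR2* has 2 in 72, *LMAN2L* has 1 in 24, and the transcripts taken for *SRP9*, *COPA*, *ARF1*, *RAB1A* and *TRAPPC3* have 0. Other transcripts of equal coding length have up to 1 for *ARF1* and up to 3 for *RAB1A*.

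**Figure D1:**
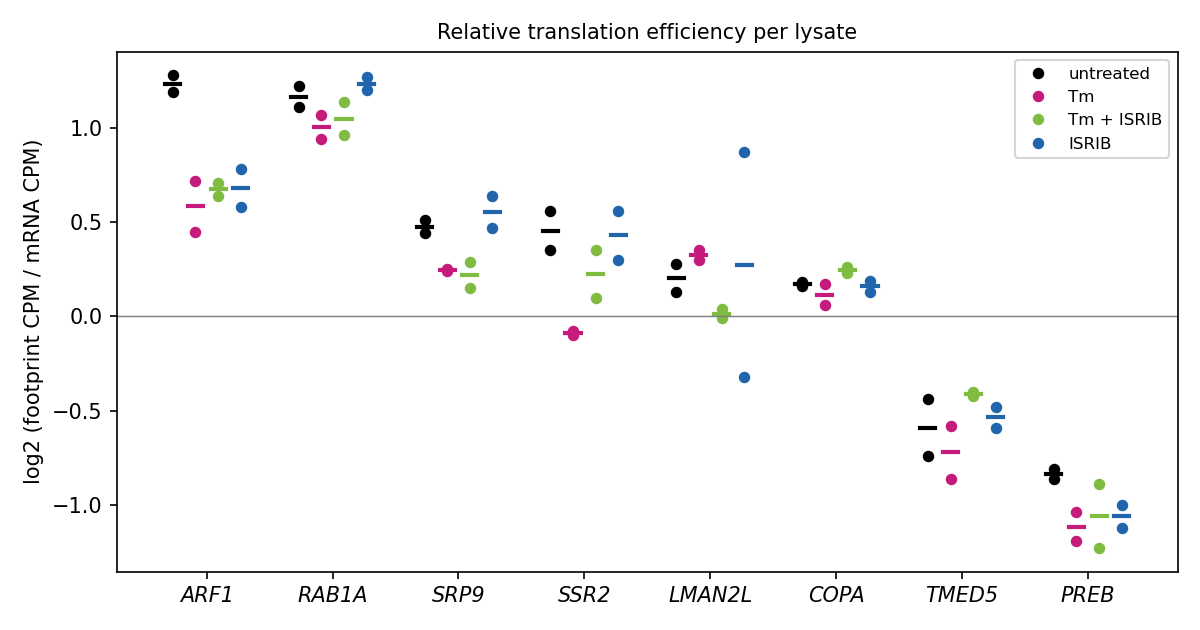
Log2 ratio of footprint to mRNA CPM (y axis) for 8 genes ordered by their level in untreated cells (x axis). Each point is 1 lysate and each bar the mean of 2. *ARF1* is between 1.19 and 1.28 in untreated cells and between 0.45 and 0.78 in the 6 treated lysates, while *TMED5* and *PREB* are below 0 in all 8 lysates.

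In Tm the mRNAs of *ARF1* and *SSR2* were higher than in UT and the efficiency of both was lower, while no footprint change among these genes passed the test. The mRNA of *ARF1* was also higher than in UT with ISRIB alone (0.52 on the log2 scale, beside 0.57 in Tm). For footprints 0 of the 8 genes were called by edgeR, against 13.5% of all transcripts. None had an unadjusted p under 0.05 (2589 of 10970 transcripts) or was called by DESeq2 (744 of 10970). Their log2 fold changes ran from -0.19 to 0.22 and their 95% intervals from -0.46 to 0.57, with a median of -0.06 beside -0.01 over all transcripts. mRNA rose for 2 of 8, against 11% of transcripts called in either direction, and efficiency fell for the same 2 of 8, against 15.9%. The mRNA count was 4 of 8 without ISRIB replicate a (2917 of 10970 transcripts called), without ISRIB replicate b (2894) or with only UT and Tm fitted (3162), beside 1209 with all libraries. It was 1 of 8 without UT replicate a (212 transcripts), and 0 of 8 without UT replicate b or either Tm replicate, where edgeR called 0 of the 10970. With 8 genes these counts are small, and the fall in efficiency is not independent of the rise in mRNA because mRNA is its denominator.

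**Figure D2:**
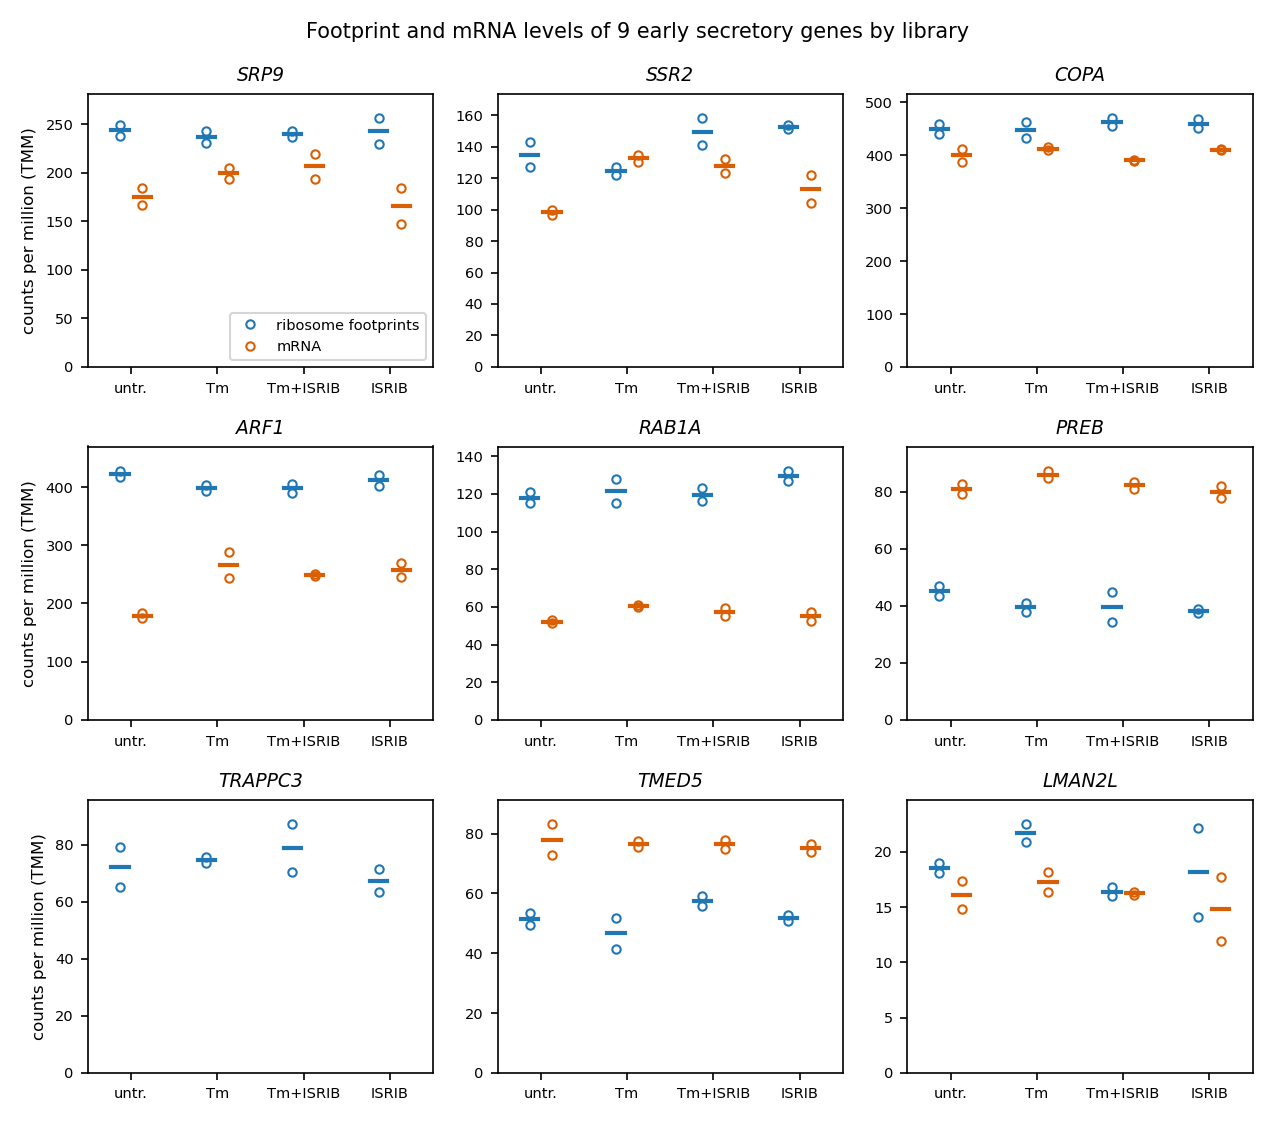
TMM-scaled CPM (y axis, from 0) of ribosome footprints (blue) and mRNA (orange) in each treatment (x axis) for 9 genes. Circles are single libraries and bars the means of 2, and *TRAPPC3* has footprints alone. The mRNA of *ARF1* is at 175 and 183 in untreated cells and at 244 to 289 in the 6 treated libraries, while its footprints stay between 390 and 427.

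The targeting and translocon genes came first in the pathway and differed from each other. *SRP9* encodes a subunit of the signal recognition particle that belongs to the Alu domain, which slows elongation. Its footprints were 238 and 249 CPM in UT, 231 and 243 in Tm, 243 and 237 in Tm + ISRIB, and 256 and 230 in ISRIB, so the groups overlapped. Its mRNA was 167 and 184 CPM in UT, 194 and 205 in Tm, 219 and 194 in Tm + ISRIB, and 184 and 147 in ISRIB. The Tm libraries were above the UT ones, but the log2 change of 0.19 (95% interval -0.05 to 0.42) did not pass edgeR's quasi-likelihood test (adjusted p = 0.29). It passed where only the UT and Tm libraries were fitted (adjusted p = 0.036), and without ISRIB replicate a (0.077) or b (0.088).

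*SSR2* encodes the beta subunit of the translocon-associated protein complex, which sits beside the channel. Its mRNA was 99.7 and 96.8 CPM in UT, 135 and 130 in Tm, 132 and 123 in Tm + ISRIB, and 122 and 104 in ISRIB. Every treated library was above both UT libraries, and the 2 ISRIB libraries were the lowest of the treated ones. mRNA rose in Tm by 0.43 ± 0.08 (log2 ± SE, 1.35-fold, edgeR adjusted p = 0.03) and in Tm + ISRIB against UT by 0.38 ± 0.08 (adjusted p = 0.033). In ISRIB the difference was 0.21 ± 0.08 (adjusted p = 0.28). With any single UT or Tm library left out, the rise in Tm stayed between 0.41 and 0.46 but no longer passed (adjusted p from 0.11 to 0.29).

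Footprints of *SSR2* were 127 and 143 CPM in UT, 127 and 122 in Tm, 141 and 158 in Tm + ISRIB, and 151 and 154 in ISRIB. The Tm pair overlapped UT and lay below the libraries with ISRIB. Tm against UT gave -0.12 (95% interval -0.3 to 0.06, edgeR adjusted p = 0.44), and Tm + ISRIB against Tm gave 0.26 ± 0.09 (1.2-fold, adjusted p = 0.052). The efficiency of *SSR2* was 0.35 and 0.56 in UT, -0.08 and -0.1 in Tm, 0.1 and 0.35 in Tm + ISRIB, and 0.3 and 0.56 in ISRIB, on the log2 scale. It fell in Tm by 0.55 ± 0.13 on the log2 scale (edgeR adjusted p = 0.008), a call that was lost without UT replicate b (-0.43, adjusted p = 0.12). The 2 Tm lysates lay below the other 6. Yet the difference of Tm + ISRIB from Tm, 0.32 (95% interval 0.06 to 0.58), missed the threshold (edgeR adjusted p = 0.18). It passed where only the Tm and Tm + ISRIB libraries were fitted (0.31, edgeR adjusted p = 0.09). This difference and the fall in Tm share the Tm libraries with opposite sign.

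Among the coats and GTPases, *ARF1* stood apart from the others in mRNA. *ARF1* encodes the GTPase that recruits the COPI coat to Golgi membranes. Its mRNA was 183 and 175 CPM in UT, 244 and 289 in Tm, 250 and 247 in Tm + ISRIB, and 270 and 246 in ISRIB. All 6 treated libraries were above both UT libraries and overlapped each other. The mRNA rose by 0.57 ± 0.08 in Tm (log2 ± SE, 1.49-fold, edgeR adjusted p = 0.017), by 0.47 ± 0.08 in Tm + ISRIB against UT (1.39-fold, adjusted p = 0.019) and by 0.52 ± 0.08 in ISRIB against UT (1.44-fold, adjusted p = 0.055). These 3 comparisons share the 2 UT libraries, so a difference particular to those libraries and one common to the treatments cannot be told apart.

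The footprints of *ARF1* passed the test in none of the 5 comparisons. They were 418 and 427 CPM in UT, 403 and 394 in Tm, 390 and 406 in Tm + ISRIB, and 402 and 421 in ISRIB. Tm against UT gave -0.08 (95% interval -0.22 to 0.06, edgeR adjusted p = 0.5), an interval that does not reach the change of its mRNA. The log2 efficiency was accordingly 1.19 and 1.28 in UT, 0.72 and 0.45 in Tm, 0.64 and 0.71 in Tm + ISRIB, and 0.58 and 0.78 in ISRIB. Both UT lysates were above all 6 treated ones. Efficiency fell in Tm by 0.66 ± 0.11 on the log2 scale (edgeR adjusted p = 8.8e-04), in Tm + ISRIB against UT by 0.56 ± 0.11 (adjusted p = 0.0064) and in ISRIB against UT by 0.56 ± 0.11 (adjusted p = 0.08).

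The fall of *ARF1* efficiency in Tm was called with each of the 8 lysates left out in turn (highest adjusted p = 0.048). The mRNA call was lost without UT replicate b (0.54, adjusted p = 0.29), Tm replicate a (0.69, 0.2) or Tm replicate b (0.45, 0.17). *ARF1* and *RAB1A* have close paralogs, *ARF3* and *RAB1B*, and how the authors assigned reads common to both copies is not given in the sources used here.

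*COPA* encodes the alpha subunit of the COPI coat that *ARF1* recruits. Its footprints were 440 and 460 CPM in UT, 432 and 463 in Tm, 455 and 470 in Tm + ISRIB, and 452 and 468 in ISRIB. Its mRNA was 388 and 412 CPM in UT, 415 and 410 in Tm, 389 and 392 in Tm + ISRIB, and 412 and 410 in ISRIB. The groups overlapped in footprints, and the mRNA difference between Tm and UT was 0.04 (95% interval -0.09 to 0.18, edgeR adjusted p = 0.7), an interval that lies below that of *ARF1* (0.39 to 0.76).

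*RAB1A* encodes a GTPase that acts between the ER and the Golgi. Its footprints were 121 and 115 CPM in UT, 115 and 128 in Tm, 116 and 123 in Tm + ISRIB, and 132 and 127 in ISRIB, and its mRNA was 51.4 and 53.1 in UT, 59.7 and 60.8 in Tm, 59.2 and 55.3 in Tm + ISRIB, and 57.4 and 52.6 in ISRIB. The Tm pair was highest in mRNA and did not overlap UT, with a difference of 0.21 (95% interval 0.03 to 0.38, edgeR adjusted p = 0.14). That difference passed where only the UT and Tm libraries were fitted (adjusted p = 0.053), and without ISRIB replicate a (0.053) or b (0.061).

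*PREB*, also known as SEC12, is the ER membrane protein that activates the GTPase SAR1 to start the COPII coat. Footprints of *PREB* were 43.3 and 46.9 CPM in UT, 40.9 and 37.9 in Tm, 44.8 and 34.2 in Tm + ISRIB, and 37.6 and 38.8 in ISRIB. The Tm and ISRIB pairs lay below UT and Tm + ISRIB overlapped it, and the log2 difference between Tm and UT was -0.19 (95% interval -0.46 to 0.07, edgeR adjusted p = 0.4). Its mRNA ranged from 77.8 to 87.1 CPM over all libraries.

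The tether *TRAPPC3*, a subunit of the TRAPP complex that activates RAB1, had footprints of 65.3 and 79 CPM in UT, 75.6 and 73.7 in Tm, 87.1 and 70.3 in Tm + ISRIB, and 63.3 and 71.4 in ISRIB. The groups overlapped except Tm and ISRIB. In Ribo-Seq alone, Tm against UT gave 0.04 (95% interval -0.19 to 0.27, edgeR adjusted p = 0.86), where 12.9% of transcripts were called, and Tm + ISRIB against Tm gave 0.07 (-0.16 to 0.31, adjusted p = 0.75), where 17.4% were called. Without mRNA counts its efficiency was not analysed here.

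The footprints of the 2 cargo receptors did not pass the test in either comparison. *TMED5*, a p24 family protein that helps load lipid-anchored cargo, had footprints of 53.6 and 49.6 CPM in UT, 51.9 and 41.5 in Tm, 59.1 and 55.8 in Tm + ISRIB, and 52.8 and 50.7 in ISRIB. Both Tm + ISRIB libraries were above all the others, and the log2 difference from Tm was 0.28 (95% interval 0.04 to 0.52, edgeR adjusted p = 0.12). It passed without UT replicate a (adjusted p = 0.098) or Tm replicate a (0.47, adjusted p = 0.063). Its mRNA ranged from 72.9 to 83.1 CPM.

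*LMAN2L*, a lectin that binds mannose-rich glycans on cargo, had the fewest counts, from 62 to 203 footprints per library. Its footprint levels were 19 and 18.1 CPM in UT, 20.9 and 22.5 in Tm, 16.8 and 16 in Tm + ISRIB, and 14.1 and 22.2 in ISRIB. Tm was above UT and Tm + ISRIB below it, and the 2 ISRIB libraries were far apart. The log2 difference between Tm + ISRIB and Tm was -0.4 (95% interval -0.77 to -0.02, edgeR adjusted p = 0.16). Its mRNA in ISRIB was 17.7 and 11.9 CPM, a log2 gap between replicates of 0.56 that lay at the 98.5th percentile of all transcripts. With either library of that pair left out, the mRNAs of *SRP9* and *RAB1A* passed in Tm against UT, as given above, and more transcripts did overall.

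**Figure D3:**
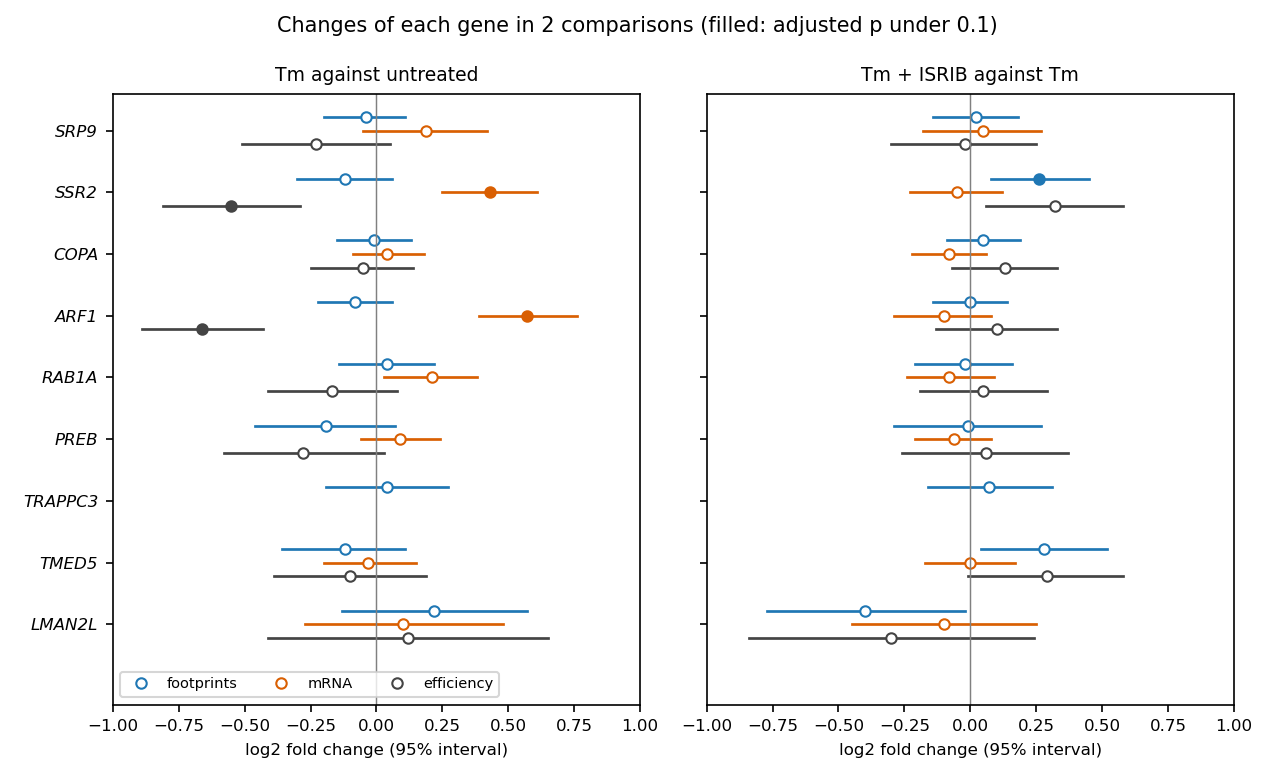
Log2 fold changes (x axis) with 95% intervals for footprints (blue), mRNA (orange) and efficiency (grey) of 9 genes (y axis) in Tm against untreated (left) and Tm + ISRIB against Tm (right), where filled points have an adjusted p under 0.1. On the left *ARF1* and *SSR2* are filled for mRNA, at 0.57 and 0.43, and for efficiency, at -0.66 and -0.55, and on the right the footprints of *SSR2* are filled, at 0.26.

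Adding ISRIB to Tm raised the footprints of *SSR2*, the 1 of 8 genes called by edgeR, against 17.7% of transcripts. At an unadjusted p under 0.05 it was 3 of 8, against 2890 of 10970 transcripts. These were *SSR2* and *TMED5*, which were higher, and *LMAN2L*, which was lower. DESeq2 called 0 of 8, against 1002 of 10970. For efficiency it was 0 of 8 by edgeR, against 6.11%. There 1 had an unadjusted p under 0.05, against 1899 of 10970 transcripts, and DESeq2 called 0, against 406. For mRNA it was 0 of 8 (0 at an unadjusted p under 0.05). No transcript at all was called for mRNA in that comparison (0%, by edgeR and by DESeq2), where 198 of 10970 had an unadjusted p under 0.05. Footprint differences of *SRP9*, *COPA*, *ARF1* and *RAB1A* between these treatments were between -0.02 and 0.05, with intervals from -0.21 to 0.19. *SSR2* was called in neither DESeq2 (adjusted p = 0.12) nor total-count scaling (0.22, adjusted p = 0.11), and its call was lost without Tm replicate a (0.3, adjusted p = 0.13), Tm replicate b (0.23, 0.25) or Tm + ISRIB replicate b (0.18, 0.35).

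Against UT, Tm + ISRIB left 0 of 8 genes called for footprints, against 2.65% of transcripts, with log2 changes from -0.2 to 0.16. At an unadjusted p under 0.05 it was 0 of 8, against 1453 of 10970 transcripts, and in DESeq2 0 of 8, against 84. The mRNAs of *ARF1* and *SSR2* were the 2 of 8 called, against 14.2%, and the efficiency of *ARF1* was the 1 of 8 called, against 8.96%. The mRNA calls of both were lost without UT replicate b or Tm + ISRIB replicate a, that of *SSR2* also without UT replicate a. The efficiency call of *ARF1* was lost without UT replicate b or Tm + ISRIB replicate a. Calls over all transcripts were also far fewer in each of these fits than with all libraries.

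ISRIB alone, against UT, left footprints within -0.24 to 0.17 on the log2 scale. By edgeR 0 of 8 were called, against 0.0182% of transcripts. At an unadjusted p under 0.05 it was 0 of 8, against 471 of 10970 transcripts, and in DESeq2 0 of 8, against 2. *ARF1* was the 1 of 8 called for mRNA, against 1.15%, and the 1 of 8 called for efficiency, against 0.191%. Both calls are near the threshold. The mRNA call was lost when any UT, Tm or Tm + ISRIB library was left out, and the efficiency call when any library but ISRIB replicate b was. Calls over all transcripts also fell in these fits, except for efficiency without UT replicate a.

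The difference between the Tm effects with and without ISRIB was tested as an interaction. Footprints gave 0 of 8, against 6.9% of transcripts, and efficiency gave *ARF1* alone, 1 of 8, against 1.39%. For footprints it was 0 of 8 at an unadjusted p under 0.05, against 2024 of 10970, and 0 of 8 in DESeq2, against 337. The Tm effect on the efficiency of *ARF1* was 0.66 ± 0.16 higher with ISRIB than without it (log2 ± SE, edgeR adjusted p = 0.058), beside the 0.56 by which efficiency in ISRIB alone fell below UT. Between Tm + ISRIB and Tm the efficiency of *ARF1* differed by 0.1 (95% interval -0.13 to 0.33, edgeR adjusted p = 0.69). The mRNA interaction of *ARF1* was -0.63 (95% interval -0.89 to -0.36, edgeR adjusted p = 0.26). For mRNA 0 of 8 were called by edgeR (2 at an unadjusted p under 0.05), against 0% of transcripts (956 of 10970 at an unadjusted p under 0.05), while DESeq2 called 16 transcripts, *ARF1* among them. The interaction shares the UT libraries with the comparisons above. Its efficiency call was lost without either UT replicate, ISRIB replicate a, Tm replicate b or either Tm + ISRIB replicate. Efficiency calls over all transcripts also fell in these fits, except without ISRIB replicate a.

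Other genes of the route were counted in 3 lists, chosen by function with earlier results of these data known. Genes are named from a list because they passed in footprints or TE in Tm against UT or Tm + ISRIB against Tm. Their changes there were thus part of the choice. In the list of ER membrane insertion and N-glycosylation, Tm raised the footprints of 1 and lowered those of 2 of 8 tested genes (13.5% of all transcripts called), raised 3 mRNAs (11%) and lowered the efficiency of 4 while raising that of 1 (15.9%). For all 3 lists, no mRNA call in Tm against UT held without UT replicate b or either Tm replicate, where edgeR called 0 of 10970 transcripts. *DDOST*, a subunit of the oligosaccharyltransferase that attaches N-linked glycans to proteins, had footprints of 408 and 390 CPM in UT, 332 and 260 in Tm, 505 and 430 in Tm + ISRIB, and 371 and 379 in ISRIB. Tm was lowest and Tm + ISRIB highest. The log2 change was -0.42 in Tm against UT (edgeR adjusted p = 0.002) and 0.65 in Tm + ISRIB against Tm (5.1e-06). *MOGS*, the first glucosidase that trims the glycan, had footprint changes of -0.43 and 0.41 in the same comparisons (edgeR adjusted p = 0.011 and 0.017). *OST4*, a very small subunit of the same transferase as *DDOST*, went the other way, at 0.89 and -0.82 (edgeR adjusted p = 5.1e-05 and 2.5e-04). *KRTCAP2*, another subunit, had a footprint change of 0.1 in Tm (edgeR adjusted p = 0.55) beside an mRNA rise of 0.71 (adjusted p = 0.036). It was named for its fall of 0.61 in efficiency (edgeR adjusted p = 0.037). Tm against UT and Tm + ISRIB against Tm share the Tm libraries with opposite sign. A deviation of those libraries alone would thus also give opposite changes. Without that pair, Tm + ISRIB against UT gave 0.23 for *DDOST*, -0.03 for *MOGS* and 0.07 for *OST4* in footprints (edgeR adjusted p = 0.2, 0.94 and 0.88). The footprint calls of *OST4* held with each library left out in turn. Those of *MOGS*, and that of *DDOST* in Tm, were lost without Tm replicate b, and that of *MOGS* in Tm also without UT replicate b, while the efficiency call of *KRTCAP2* was lost without UT replicate b or either Tm replicate.

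In the list of ER-to-Golgi traffic and early Golgi, the mRNAs of 6 of 16 genes rose in Tm and none fell (11% of all transcripts called), the footprints of 2 rose (13.5%), and the efficiency of 4 fell (15.9%). The median mRNA change was 0.18, beside 0 over all transcripts and 0.15 for the 8 genes followed here. *GORASP2*, a Golgi stacking protein, had mRNA at 48 and 41.4 CPM in UT, 72 and 75.5 in Tm, 73.8 and 66.5 in Tm + ISRIB, and 76.8 and 60.9 in ISRIB, and footprints between 101 and 118 CPM. All 6 treated mRNA libraries were above both UT libraries while the footprints overlapped. Its mRNA rose in Tm by 0.72 ± 0.12 (edgeR adjusted p = 0.018) and in ISRIB by 0.63 ± 0.12 (adjusted p = 0.063). The mRNA of *PEF1*, an adaptor for ubiquitylation of the COPII coat, was likewise higher in all 6 treated libraries and rose by 0.59 in Tm and 0.49 in ISRIB (adjusted p = 0.017 and 0.063). *JAGN1*, an ER membrane protein, rose by 0.46 in mRNA in Tm (edgeR adjusted p = 0.063), with a footprint change of -0.03 (adjusted p = 0.91). *GORASP2*, *PEF1* and *JAGN1* were named for a fall in efficiency in Tm. Higher mRNA without a called footprint change therefore goes with the choice and is not a separate result. Comparisons with UT also share the UT libraries, as stated for *ARF1*. *GOLPH3L*, a Golgi membrane protein, fell by 0.46 in footprints in Tm + ISRIB against Tm (adjusted p = 0.043), a call lost in DESeq2 and without Tm replicate b or Tm + ISRIB replicate a. The mRNA calls of *GORASP2* and *PEF1* in ISRIB against UT were lost with any UT, Tm or Tm + ISRIB library left out, and where only the UT and ISRIB libraries were fitted, which called 0 of 10970 transcripts.

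In the list of late Golgi and endosomes, 2 of 14 mRNAs rose and 1 fell in Tm (11% of all transcripts called), footprints of 2 rose and of 1 fell (13.5%), and the efficiency of 2 fell (15.9%), with a median mRNA change of 0.02. *SCAMP3*, a carrier protein of recycling membranes, rose by 0.41 in mRNA both in Tm and in ISRIB against UT (edgeR adjusted p = 0.023 and 0.061). It was named for its fall in efficiency in Tm, and both comparisons share the UT libraries. Footprints of *SNX17*, a sorting nexin of endosomes, changed by -0.41 in Tm against UT and by 0.4 in Tm + ISRIB against Tm (edgeR adjusted p = 0.0046 and 0.0054). *VPS45*, a regulator of SNARE assembly, did the reverse at 0.28 and -0.31 (edgeR adjusted p = 0.061 and 0.037). The footprints of *VAMP4*, a SNARE of the trans-Golgi network, fell by 0.69 when ISRIB was added (edgeR adjusted p = 0.073). For *SNX17* and *VPS45* the 2 comparisons again share the Tm libraries with opposite sign. Tm + ISRIB against UT gave -0.01 and -0.03 for their footprints (edgeR adjusted p = 0.98 and 0.94). The *SNX17* footprint calls held with each library left out, that of *VPS45* in Tm was lost in DESeq2 and without UT replicate b or Tm replicate b, that on adding ISRIB without Tm replicate b or Tm + ISRIB replicate a, that of *VAMP4* in DESeq2 and without either Tm replicate or Tm + ISRIB replicate a, and the mRNA call of *SCAMP3* in ISRIB was lost in the same fits as that of *GORASP2*. Differences between these lists and the genes followed here were not tested.

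**Figure D4:**
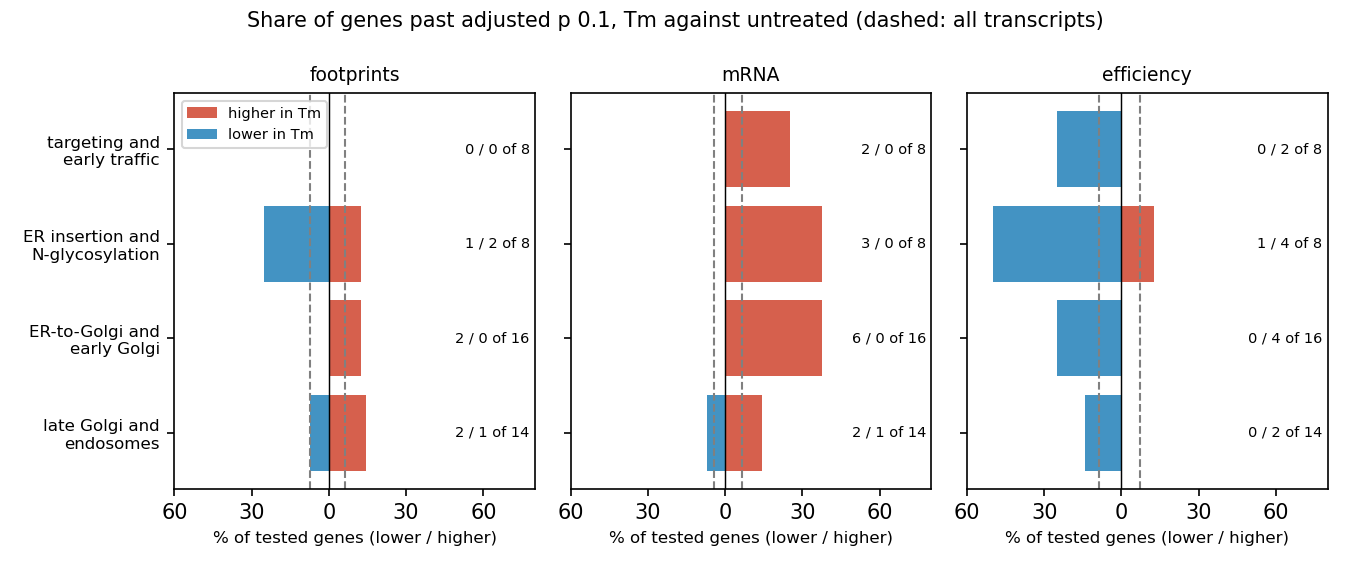
Percent of tested genes past an adjusted p of 0.1 in Tm against untreated (x axis; higher to the right in red, lower to the left in blue) for the 8 genes followed here and the 3 lists (y axis), for footprints, mRNA and efficiency, with the numbers higher and lower written beside each bar and dashed lines at the percentages over all transcripts. The genes followed here show 0 for footprints, 2 of 8 higher for mRNA and 2 of 8 lower for efficiency.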

How the data were processed

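For each library the authors deposited 1 table of whole-number read counts by transcript, taken over the coding sequence, neither normalized nor pooled. The submitters' processing notes name CASAVA 1.8, Bowtie 1.0.0, TopHat2 2.0.10 and 2.0.7 and the build hg19. Assignment of reads shared by isoforms or gene copies is not given in the sources used here. Counted lengths are 20 codons below those of the matching GENCODE v29 coding sequences. Transcripts were joined between assays by identifier without version and equal length (19044 of 21520 with a coding sequence). Groups are those of the labels.

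Transcripts with 10 counts by filterByExpr in both assays were kept. Footprints and mRNA were fitted over 8 libraries each and TE over 16 as the interaction of assay and treatment, in edgeR 4.0.16 (TMM, glmQLFit, glmQLFTest, R 4.3.3), with Benjamini-Hochberg adjustment within each of 5 comparisons and an FDR of 0.1. SE is the absolute log2 change over the square root of F. Efficiency per lysate used a pseudocount of 0.5 CPM. Variation between replicates (edgeR's common coefficient) came to 5.62% for Ribo-Seq and 6.7% for mRNA-Seq, and low counts are less precise. The methods were also run on simulated counts with the same spread in all libraries of an assay. The groups here differ in spread, so those runs do not show how the calls behave under unequal spread. PCR copies cannot be told from separate fragments.

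Genes named are all members, *ATF4*, and up to 4 genes a list past the FDR in footprints or TE in Tm against UT or Tm + ISRIB against Tm, by largest change. The members and lists were chosen with earlier results of these data known. Of the lists, *STT3B*, *ALG6*, *MCFD2*, *STX6* and *TGOLN2* were not tested. Alternatives were DESeq2 1.42.0, other scalings, no filter, blocks and libraries left out.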

Additional observations from a re-analysis of the deposited data

Results flagged for a closer look

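The Tm effect on the efficiency of *ARF1* differed with and without ISRIB by 0.66 on the log2 scale (edgeR's quasi-likelihood test of the interaction over all transcripts, Benjamini-Hochberg adjusted p = 0.058). That call depended on single libraries, as given above. Compared directly, efficiency in Tm + ISRIB differed from that in Tm by 0.1 (95% interval -0.13 to 0.33, edgeR adjusted p = 0.69). The log2 efficiency of both UT lysates, 1.19 and 1.28, was above that of all 6 treated lysates, from 0.45 to 0.78.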

How the results depend on the processing

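In the 50 changes of single genes in Tm against UT and Tm + ISRIB against Tm, 691 of 748 alternative values kept direction and side of the threshold, 10 were called that had not been, 13 lost the call and 34 changed sign. Most of the 50 were not called with all libraries, so most of the 691 are changes that stayed uncalled. The 13 losses fall on the few that were called. These were mRNA and TE of *ARF1* and *SSR2* in Tm against UT, and footprints of *SSR2* in Tm + ISRIB against Tm. Between 2 libraries and 1, calls depend on the spread of the other groups, and the lone library is assumed to vary as they do.

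With only the treatments compared, called genes went from 2 to 4 for mRNA in Tm against UT (all transcripts from 1209 to 3162), from 0 to 1 for TE in Tm + ISRIB against Tm (670 to 1028), and from 1 to 0 for mRNA and TE in ISRIB against UT (126 to 0 and 21 to 0). Footprint calls in Tm + ISRIB against Tm went from 1 to 0 under total-count scaling (all transcripts from 1945 to 2109) and under DESeq2 (to 1002). The mRNA calls in the interaction went from 0 to 1 under DESeq2 (all transcripts from 0 to 16) and without the filter (to 19 of 14187). The cause was not tested.

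With 1 library left out, calls ranged from 0 to 4 for mRNA and 1 to 2 for TE in Tm against UT, 0 to 2 for footprints in Tm + ISRIB against Tm, 0 to 3 for mRNA and 0 to 1 for TE in Tm + ISRIB against UT, 0 to 2 for mRNA and 0 to 1 for TE in ISRIB against UT, and 0 to 2 for mRNA and 0 to 1 for TE in the interaction.

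The labels do not say what the replicate letters pair. Same-letter correlations of deviations were -0.05 to 0.12 in Ribo-Seq and -0.18 to 0.41 in mRNA-Seq. The highest, 0.41, was between ISRIB and Tm + ISRIB in mRNA-Seq. Between footprints and mRNA of the same treatment they were -0.06 to 0.05. A replicate block left every count of called genes here within 1.5 times, and over all transcripts moved mRNA calls in Tm against UT from 1209 to 1780. Crossing the untreated mRNA letters, chosen after seeing the data, gave 2303 and called 1 of 8 for mRNA in the interaction (17 of 10970 transcripts). A block by lysate gave 1737 TE calls.

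Sign changed, without a call, under total-count scaling for footprints of *SRP9* (0.01 in Tm, -0.02 on adding ISRIB) and *COPA* (0.04) and TE of *COPA* (0.04), and for mRNA of *TMED5* on adding ISRIB without the filter (0.01) and with only those treatments (0.00). Ranges with 1 library left out that crossed 0 were, in Tm against UT, for *COPA* -0.06 to 0.04 (footprints) and -0.11 to 0.00 (TE), for *RAB1A* footprints -0.04 to 0.12, for *TMED5* -0.31 to 0.01, -0.12 to 0.07 (mRNA) and -0.27 to 0.05 (TE), for *LMAN2L* mRNA -0.00 to 0.23, and for *TRAPPC3* footprints -0.08 to 0.19. On adding ISRIB to Tm they were, for *SRP9*, -0.01 to 0.06, -0.04 to 0.13 (mRNA) and -0.10 to 0.05 (TE), for *ARF1* -0.04 to 0.03, -0.22 to 0.02 (mRNA) and -0.04 to 0.23 (TE), for *RAB1A* -0.11 to 0.05 and -0.05 to 0.14 (TE), for *PREB* -0.21 to 0.17 and -0.12 to 0.21 (TE), for *TMED5* mRNA -0.03 to 0.03, and for *TRAPPC3* footprints -0.09 to 0.22.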
